A study of Homo sapiens with 28 samples.

Results

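The cytosolic aminoacyl-tRNA synthetases described here are 10 genes, AARS, CARS, EPRS, GARS, IARS, LARS, MARS, SARS, WARS and YARS, of 18961 in the table. They were taken by symbol from the table's gene column, which uses the names in force before most of these genes gained a final 1 (AARS is now AARS1). All 10 passed the filter on low reads. Expression was measured in 28 libraries of 4 human liver tumour lines, the hepatoblastoma line HepG2 and the hepatocellular carcinoma lines Hep3B, HuH7 and PLC/PRF/5. Each line gave 3 libraries from cells grown in vitro and 4 from tumours grown in ovo, for 12 culture and 16 tumour libraries. For the tumours, cells were laid on the chorioallantoic membrane of fertilised white leghorn eggs at embryonic day 9, and the nodules were removed at day 18. The labels name no gene alteration and no drug in any group. Tumours grow into chick tissue, so a nodule can hold host cells, and whether the human amplicons read chick RNA was not tested. Culture RNA came from a Mini and tumour RNA from a Midi RNeasy kit, so kit and growth condition cannot be told apart.

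An aminoacyl-tRNA synthetase joins 1 amino acid to its transfer RNA, the step that supplies the ribosome with charged tRNA. Several of these enzymes, EPRS, IARS, LARS and MARS among them, sit in the multisynthetase complex, and the others listed here work outside it. When amino acids run short, uncharged tRNA activates the kinase GCN2 (EIF2AK4), translation of the transcription factor ATF4 increases, and ATF4 raises the transcription of many cytosolic synthetases together with amino acid transporters and biosynthetic enzymes. WARS is in addition a known interferon-gamma-induced gene.

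Each gene was read by 1 amplicon, and all 10 amplicons matched the coding sequence of 1 gene in GENCODE 29 (GRCh38). The amplicons of 4 members are printed because the results turn on them: EPRS and MARS were lower in every line, LARS has the longest amplicon of the 10 (238 bases) and WARS the shortest (104 bases). EPRS was read on the minus strand of chr1:219980845-219982816, exons 23 to 25, and MARS on the plus strand of chr12:57515016-57515244, exons 17 to 18. LARS was read on the minus strand of chr5:146124049-146128760, exons 27 to 29, and WARS on the minus strand of chr14:100334961-100337089, exons 10 to 11. Capitals mark the 3 bases on each side of an exon junction.
EPRS: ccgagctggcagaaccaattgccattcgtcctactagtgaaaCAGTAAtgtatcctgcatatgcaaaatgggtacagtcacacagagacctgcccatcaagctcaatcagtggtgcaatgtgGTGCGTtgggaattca
MARS: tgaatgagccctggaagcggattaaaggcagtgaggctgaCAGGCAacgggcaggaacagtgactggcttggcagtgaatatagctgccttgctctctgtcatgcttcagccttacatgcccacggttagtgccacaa
LARS: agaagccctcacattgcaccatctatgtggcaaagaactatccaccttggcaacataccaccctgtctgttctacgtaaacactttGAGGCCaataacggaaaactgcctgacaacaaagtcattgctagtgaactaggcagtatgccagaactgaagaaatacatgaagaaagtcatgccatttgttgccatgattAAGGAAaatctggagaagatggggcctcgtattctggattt
WARS: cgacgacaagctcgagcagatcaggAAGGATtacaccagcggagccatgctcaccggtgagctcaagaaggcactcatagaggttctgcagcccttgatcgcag
An amplicon that crosses an intron, as these do, is contiguous in spliced RNA. The SARS and YARS amplicons each lie in 1 exon.

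Culture libraries held 6205368 to 8662998 reads, and tumour libraries 6085750 to 15086465. Levels are CPM, reads per fixed library total, after TMM scaling between libraries. They are given as mean ± SD over 3 cultures (n = 3) or 4 tumours (n = 4) of a line. Amplicons differ in efficiency, so levels are compared between libraries of 1 gene and not between genes. A fold change compares tumours with cultures as a difference of log2(CPM + 1), ± SE, which understates changes of genes read at a few CPM. A gene is called at limma's Benjamini-Hochberg adjusted p under 0.05 over 13100 genes tested. No label says whether replicates are separate cultures or eggs, and a p-value here is set against the spread of these libraries alone. In bulk RNA, fewer cells that express a gene and less of its RNA per cell cannot be told apart.

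Some libraries and lines stood apart before any comparison. The tumour libraries numbered 3 of HepG2, Hep3B and HuH7 had the lowest AARS, CARS, IARS and LARS of their groups and the highest GARS, MARS, SARS and WARS. The PLC/PRF/5 tumour numbered 2 lay near its cultures, with the members on average -0.11 below them on the log2 scale, against -0.71 to -0.98 in the other PLC/PRF/5 tumours. Summed hepatocyte markers (8 genes) were 21 to 28 CPM in PLC/PRF/5 cultures, with 2 of the 8 at 0, against 12296 to 73252 CPM in the other cultures, so they were near absent in that line. Their sum moved with growth in ovo: it was 703 to 1881 CPM in PLC/PRF/5 tumours, 136561 to 242071 CPM in HepG2 tumours against 67714 to 73252 CPM in cultures, and 161359 to 307092 against 18912 to 20412 CPM in Hep3B. HuH7 went the other way, with 4513 to 7165 CPM in tumours and 12296 to 12623 CPM in cultures. The part of these shifts in the results was not tested. Both erythroid markers in the table, of 6 listed, were at 0 in all libraries. Summed leukocyte markers spanned 1.4 to 46.7 CPM in cultures and 1.72 to 50.8 CPM in tumours, and the ranges overlapped in every line. The widest shift was in Hep3B, from 9.48 to 10.8 CPM in cultures to 3.23 to 32 CPM in tumours. Summed smooth muscle markers were higher in tumours of HepG2 (14.1 to 18.2 CPM in cultures, 27.5 to 33.1 in tumours) and HuH7 (2.17 to 2.72 and 8.34 to 37.6). Their ranges overlapped in Hep3B (0.331 to 0.677 and 0.234 to 2.42 CPM) and PLC/PRF/5 (5.82 to 6.85 and 3.25 to 5.85 CPM). Summed endothelial markers (6 genes) went from 8.49 to 10.8 CPM in HepG2 cultures to 48.7 to 60.6 CPM in its tumours, and from 1.33 to 1.76 to 7.79 to 10.8 CPM in Hep3B. They stood at 21.1 to 23.1 and 5.62 to 20.8 CPM in HuH7, and at 0.234 to 0.856 and 2.17 to 6.46 CPM in PLC/PRF/5. Summed fibroblast markers (6 genes) were higher in tumours of Hep3B (103 to 105 CPM in cultures, 279 to 527 in tumours) and HuH7 (346 to 366 and 540 to 842). They were lower in tumours of HepG2 (18.5 to 21.8 and 4.2 to 4.8 CPM) and PLC/PRF/5 (139 to 189 and 59.6 to 88.8 CPM). The part of these markers in the results was not tested either.

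Between 2 and 6 of the 10 synthetases fell in each line, and no member was called higher in any. In HepG2, 5 of 10 fell (CARS, EPRS, MARS, SARS and YARS), where 12.4% of all genes tested were called lower. In Hep3B, 6 fell (AARS, CARS, EPRS, IARS, LARS and MARS), beside 26.7% of all genes. In HuH7, 6 fell (AARS, EPRS, IARS, LARS, MARS and YARS), beside 19.5%. PLC/PRF/5 had 2 that fell (EPRS and MARS), beside 5.62%. In the mean of the 4 lines, 8 fell, all but GARS and SARS, beside 31.9%. With limma, 0 members were higher in each line and in the mean, while 12.6%, 25.3%, 23.9%, 11.7% and 34.4% of all genes were called higher in HepG2, Hep3B, HuH7, PLC/PRF/5 and the mean. The count of higher members was also 0 at an unadjusted p under 0.05, by edgeR and by DESeq2.

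The members' median log2 fold change was -1.02 (HepG2), -1.13 (Hep3B), -1.06 (HuH7) and -0.66 (PLC/PRF/5). The median of all genes tested lay between -0.03 and 0.07 in these lines. Every tumour lay below every culture for 7, 6, 5 and 6 members in these lines, against 20.4%, 28.2%, 22.6% and 16.3% of all genes. The 2 calls in PLC/PRF/5 were both lost without tumour 1 (EPRS limma adjusted p = 0.0549, MARS 0.0857) or tumour 3 (0.087 and 0.0596), EPRS also without culture 2 (0.139) and MARS without culture 1 (0.0893) or 3 (0.0874). Scaling by total counts alone put the median of all genes at -0.176 in HepG2, -0.737 in Hep3B and -0.135 in HuH7, and all 10 members were then called lower in Hep3B, where 61.3% of all genes were called in either direction against 52% with TMM.

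**Figure D1:**
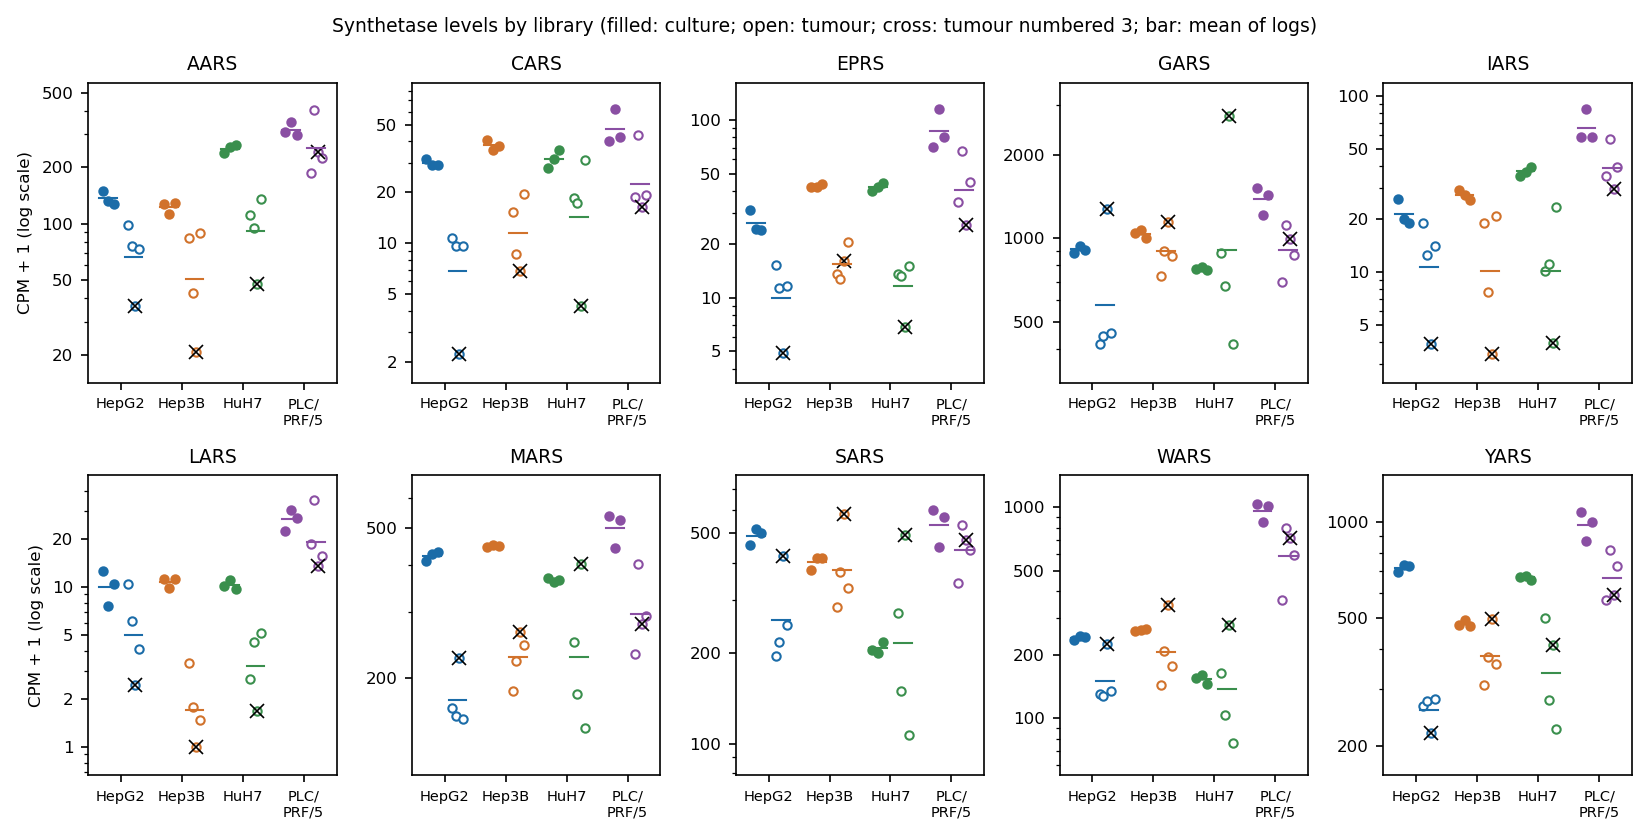
CPM + 1 on a log axis for the 10 synthetases in each library, by line. Filled points are cultures, open points tumours, crosses mark the tumours numbered 3, and bars are means of the logs. PLC/PRF/5 cultures have the highest mean in every panel, and for EPRS every tumour lies below every culture of its line.

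**Figure D2:**
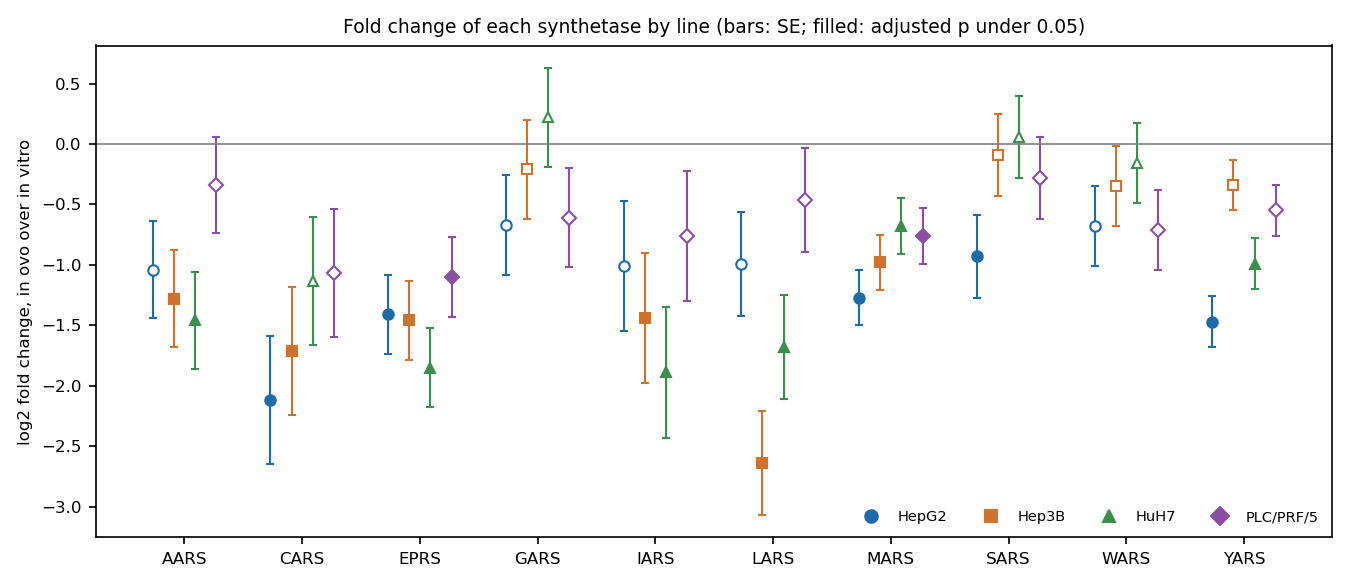
Log2 fold change, in ovo over in vitro, of each synthetase in each line, with SE as bars. Filled symbols passed an adjusted p under 0.05. EPRS and MARS are filled in all 4 lines, and GARS and WARS in none.

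Among the complex members, EPRS, which joins both glutamate and proline to their tRNAs, fell in all 4 lines. Its cultures read 30.3, 23.4 and 23 CPM in HepG2 and its tumours 14.2, 10.3, 3.87 and 10.7 CPM, with no overlap. The log2 fold change was -1.41 ± 0.33 (limma adjusted p = 0.00231). In Hep3B the cultures read 41.2, 41 and 42.6 CPM and the tumours 12.7, 11.8, 15.1 and 19.7 CPM, a log2 fold change of -1.46 ± 0.33 (0.000803). The Hep3B tumours were all under every Hep3B culture, and the same held for HuH7. HuH7 cultures read 38.7, 41.1 and 43.3 CPM against 12.6, 12.2, 5.83 and 14.1 CPM in tumours (log2 -1.85 ± 0.33, adjusted p = 9.57e-05). PLC/PRF/5 cultures read 69.5, 114 and 79.1 CPM against 33.6, 65.6, 24.6 and 43.6 CPM in tumours (-1.10 ± 0.33, 0.0206). There the highest tumour came close to the lowest culture without crossing it.

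MARS, the methionyl enzyme, also fell in all 4 lines, by smaller steps and with tight cultures. HepG2 cultures read 407, 425 and 431 CPM and tumours 166, 158, 226 and 155 CPM (log2 -1.27 ± 0.23, limma adjusted p = 0.000217). Hep3B cultures read 445, 449 and 447 CPM and tumours 184, 221, 264 and 244 CPM (-0.98 ± 0.23, 0.00137). In both lines the tumours lay far below the cultures. HuH7 cultures read 367, 359 and 363 CPM and tumours 248, 181, 400 and 147 CPM (-0.68 ± 0.23, 0.0228), with tumour 3 above every culture. PLC/PRF/5 cultures read 538, 442 and 525 CPM and tumours 231, 400, 278 and 292 CPM (-0.76 ± 0.23, 0.0248), with no overlap. The HuH7 call was lost by edgeR (0.0577), by DESeq2 (0.0901), with the line fitted alone (0.101) and without any 1 culture, tumour 2 or tumour 4 (0.0545 to 0.0872). With the 4 tumours numbered 3 left out, MARS in HuH7 was at -0.94 (0.000101).

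LARS, the leucyl enzyme and a leucine sensor upstream of mTORC1, fell in Hep3B and HuH7 from levels of about 9 CPM. Hep3B cultures read 10.2, 8.8 and 10.2 CPM. The Hep3B tumours held 22, 3, 0 and 2 reads, or 2.33, 0.769, 0 and 0.469 CPM. Tumours 2, 3 and 4 are thus at or under the floor of 3 reads per library. The fitted change of -2.64 ± 0.43 (limma adjusted p = 2.63e-05) depends on the pseudocount, being -3.58 with 0.25 CPM and -1.33 with 5 CPM. HuH7 cultures read 9.2, 9.99 and 8.71 CPM and tumours 1.67, 3.54, 0.686 and 4.17 CPM (-1.68 ± 0.43, 0.00348), with no overlap. HepG2 (9.2 ± 2.46 to 4.78 ± 3.46 CPM, -0.99 ± 0.43) and PLC/PRF/5 (25.6 ± 3.85 to 19.6 ± 9.71 CPM, -0.46 ± 0.43) were not called (0.099 and 0.53), and in both the groups overlapped.

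IARS, the isoleucyl enzyme, fell in Hep3B and HuH7. In Hep3B it went from 28.2, 26.3 and 24.7 CPM in cultures to 18, 6.67, 2.42 and 19.7 CPM in tumours (log2 -1.44 ± 0.54, limma adjusted p = 0.0294). In HuH7 it went from 34.1, 36.1 and 38.5 CPM to 9.13, 10.1, 2.92 and 22.3 CPM (-1.89 ± 0.54, 0.00759). Tumours spread widely in both lines and stayed below the cultures. In HepG2 (-1.01 ± 0.54, 0.185) and PLC/PRF/5 (-0.76 ± 0.54, 0.38) it was not called. The Hep3B call was lost by edgeR (0.0755), by DESeq2 (0.0505), with the line fitted alone (0.0574), and without any 1 culture (0.0598 to 0.077), tumour 2 (0.059) or tumour 3 (-0.97, 0.119).

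Among the enzymes outside the complex, CARS and AARS each fell in 2 lines. CARS, the cysteinyl enzyme, fell in HepG2 from 30.6, 28.2 and 27.9 CPM to 9.74, 8.72, 1.22 and 8.67 CPM (log2 -2.12 ± 0.53, limma adjusted p = 0.00414). In Hep3B it fell from 39.7, 34.8 and 36.6 CPM to 14.3, 7.69, 5.91 and 18.5 CPM (-1.71 ± 0.53, 0.00932). Neither line's groups overlapped, and the ratio of means was 4.07 in HepG2 and 3.19 in Hep3B. In HuH7 (30.7 ± 3.82 to 16.8 ± 10.9 CPM, -1.13 ± 0.53, 0.0856) and PLC/PRF/5 (47.3 ± 12.4 to 23.5 ± 12.8 CPM, -1.07 ± 0.53, 0.178) 1 tumour each reached the cultures and CARS was not called. AARS, the alanyl enzyme, fell in HuH7 from 236, 254 and 261 CPM to 110, 93.8, 46.8 and 135 CPM (-1.46 ± 0.40, 0.005). In Hep3B it fell from 127, 112 and 128 CPM to 82.9, 41.8, 19.6 and 88.6 CPM (-1.28 ± 0.40, 0.00946). In HepG2 all AARS tumours lay below all cultures (136 ± 11.7 to 69.8 ± 25.6 CPM, -1.04 ± 0.40), short of the call at 0.0569. AARS in PLC/PRF/5 was at -0.34 ± 0.40 (0.639), and tumour 2 at 403 CPM was above every culture.

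YARS, the tyrosyl enzyme, fell in HepG2 and HuH7. HepG2 cultures read 695, 733 and 728 CPM and tumours 265, 275, 218 and 278 CPM, the most even set of tumours of this gene (log2 -1.47 ± 0.21, limma adjusted p = 7.76e-06). HuH7 cultures read 672, 678 and 659 CPM and tumours 499, 276, 411 and 224 CPM (-0.99 ± 0.21, 0.000576). Neither line's groups overlapped. In Hep3B, cultures of 475, 491 and 472 CPM faced tumours of 308, 376, 496 and 358 CPM (-0.34 ± 0.21, 0.181), with tumour 3 above the cultures. PLC/PRF/5 went from 982 ± 103 to 674 ± 117 CPM (-0.55 ± 0.21, 0.0711) without overlap.

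GARS and WARS were called in no line and SARS in 1. GARS, the glycyl enzyme, which serves both cytosol and mitochondria, had limma adjusted p of 0.242 to 0.698. Its HuH7 cultures read 778, 786 and 772 CPM and its tumours 885, 672, 2739 and 416 CPM, so the positive log2 fold change of 0.22 ± 0.41 there turned to -0.31 without tumour 3. HepG2 cultures read 888, 941 and 911 CPM and tumours 417, 445, 1278 and 458 CPM (-0.67 ± 0.41). Again tumour 3 stood above the cultures and the other tumours far below them, and without tumour 3 GARS in HepG2 was called, at -1.05 (0.0492). SARS, the seryl enzyme, was called in HepG2, from 458, 515 and 501 CPM to 194, 217, 421 and 247 CPM (-0.93 ± 0.34, 0.0496). That call stood at the threshold, and was ended by leaving out any 1 HepG2 library other than tumour 3 (0.0883 to 0.124) or most single libraries of other lines, by edgeR (0.07) and by DESeq2 (0.0963). In the other lines SARS was between -0.28 and 0.06 (0.662 to 0.924). WARS, the tryptophanyl enzyme, was called in no single line (-0.16 to -0.71, adjusted p 0.135 to 0.73) but in the mean of lines (-0.47 ± 0.16, 0.0138), where DESeq2 gave 0.0624.

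Leaving out the 4 tumours numbered 3 left 12981 genes tested and raised the counts of members that fell except in HuH7. They became 8 in HepG2 (beside 16.2% of all genes called lower), 8 in Hep3B (30.5%), 6 in HuH7 (22.2%), 5 in PLC/PRF/5 (11.2%) and 10 in the mean of lines (32.0%). All 10 log2 fold changes were then negative in every line, from -0.29 for LARS in PLC/PRF/5 to -2.42 for LARS in Hep3B. In the mean of lines GARS was at -0.58 (limma adjusted p = 2.53e-05) and SARS at -0.53 (0.000262). Other values moved towards 0, as IARS in HepG2 to -0.50 (0.255), IARS in Hep3B to -0.94 (0.0159), LARS in HepG2 to -0.63 (0.184) and CARS in HuH7 to -0.54 (0.132).

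**Figure D3:**
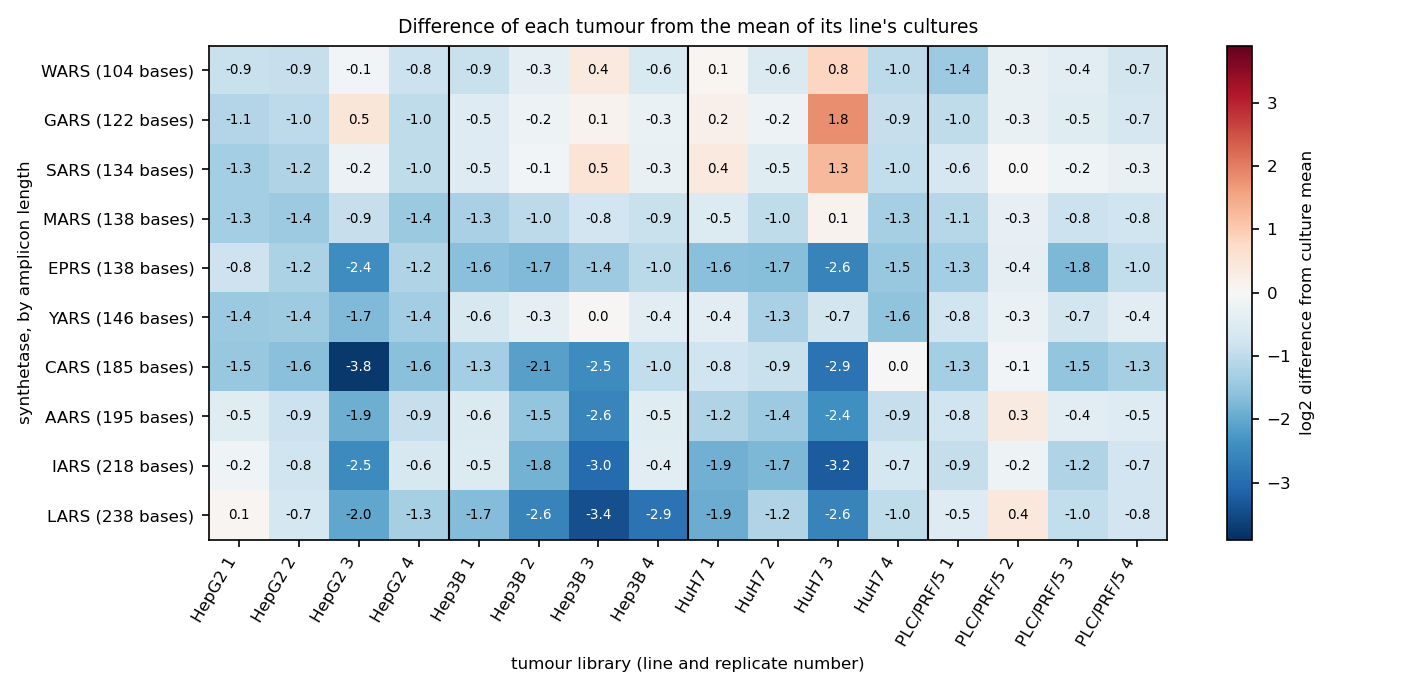
Log2 difference of each tumour library from the mean of its line's cultures (colour and number), for the synthetases ordered by amplicon length. Tumours numbered 3 of HepG2, Hep3B and HuH7 run from near or above 0 for the shortest amplicons to between -1.9 and -3.8 for CARS, AARS, IARS and LARS, and the PLC/PRF/5 tumour numbered 2 lies near 0 throughout. EPRS, with 138 bases, departs from this order in those tumours numbered 3, at -2.44, -1.40 and -2.62.

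Fold changes went with amplicon length and GC content across all genes in each line, and the members with long amplicons had the lower median in Hep3B and HuH7. Over all genes, Spearman's rho with GC was 0.28 (HepG2), 0.46 (Hep3B), 0.51 (HuH7) and 0.39 (PLC/PRF/5). With length it was -0.29, -0.49, -0.34 and -0.21. LARS (43.3%) and EPRS (47.8%) have the lowest GC of the members and SARS (66.4%) the highest, followed by CARS (63.2%) and AARS (61.0%). The amplicons of WARS, GARS, SARS, EPRS, MARS and YARS span 104 to 146 bases and those of CARS, AARS, IARS and LARS 185 to 238 bases. In Hep3B the median log2 fold change of all genes was 0.29 for amplicons under 150 bases and -0.84 for those over 180 bases. The short members there had a median of -0.34 and the long members -1.58. In HuH7 the corresponding medians were 0.23 and -0.46 for all genes and -0.42 and -1.57 for members. In HepG2 the all-gene medians were 0.11 and -0.32, and members had -1.10 and -1.02, with no larger fall for long amplicons. PLC/PRF/5 had 0.14 and -0.09 for all genes, and -0.66 and -0.61 for members. In each line both member medians lay below the all-gene median of the same length class.

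When trends with GC content and amplicon length were removed in each library, 7 members fell in HepG2 (beside 13.8% of all genes), 8 in Hep3B (21.5%), 8 in HuH7 (21.2%), 5 in PLC/PRF/5 (9.35%) and 10 in the mean of lines (28.7%). Values of both long and short members moved both ways. Among long ones, LARS in Hep3B went to -0.98 (limma adjusted p = 0.000763) and IARS in Hep3B to -0.59 (0.154), while CARS in HuH7 went from -1.13 to -1.50 (0.0234). Among short ones, WARS in Hep3B went to -1.0 (0.00267) and SARS in HuH7 from 0.06 to -0.73 (0.0171), while EPRS in Hep3B went from -1.46 to -0.95 (0.00373). EPRS stayed called in all 4 lines, between -0.95 and -1.47, and so did MARS, between -0.72 and -1.22.

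**Figure D4:**
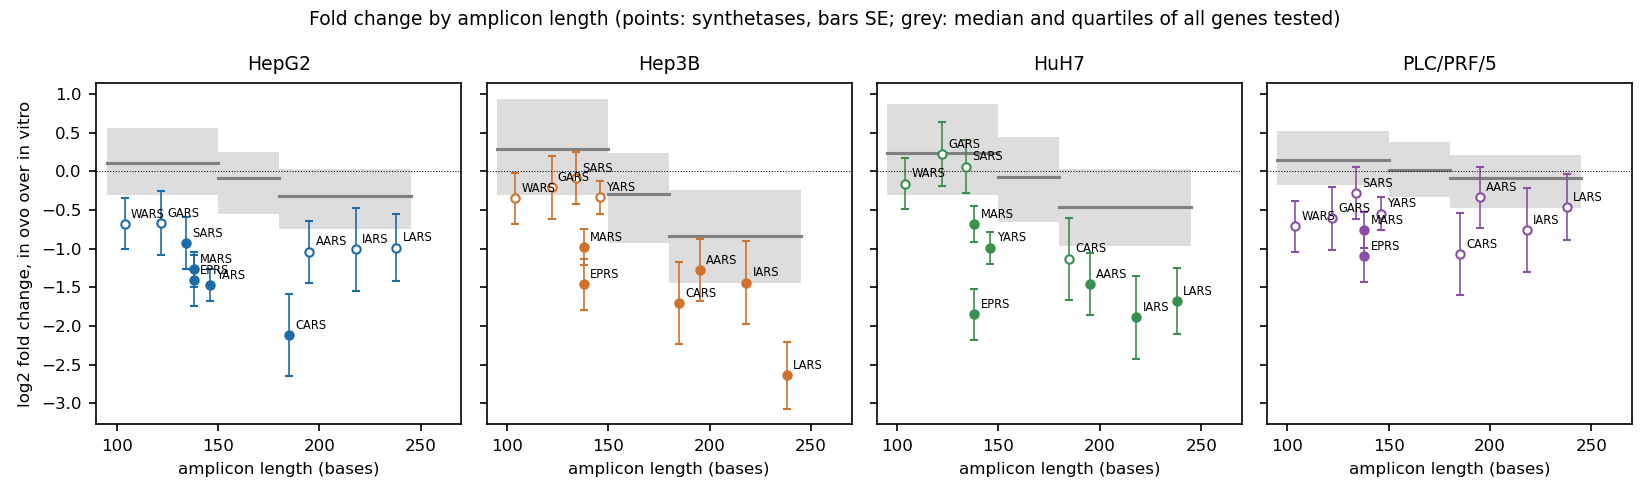
Log2 fold change against amplicon length in bases in each line. Points are the synthetases with SE bars (filled, adjusted p under 0.05), and grey bands give the median and quartiles of all genes tested under 150, from 150 to 180 and over 180 bases. In Hep3B and HuH7 both the grey medians and the synthetases fall with length, and nearly all synthetases lie below the grey median of their length.

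The size of the response differed between lines for LARS and YARS, a smaller share of the members than of all genes tested. The F test of the line by condition interaction gave limma adjusted p = 0.0278 for LARS and 0.0131 for YARS, and 41.7% of all genes passed the same test. LARS changed by -2.64 in Hep3B against -0.46 in PLC/PRF/5, and YARS by -1.47 in HepG2 against -0.34 in Hep3B. The other 8 members had adjusted p from 0.313 to 0.668. The LARS difference missed the threshold with the length and GC trends removed (0.0626), with a pseudocount of 5 CPM (0.102) and without Hep3B culture 1 (0.0607), Hep3B culture 3 (0.0606), Hep3B tumour 3 (0.0501) or PLC/PRF/5 culture 1 (0.0576). YARS stayed under it in every alternative run (0.00324 to 0.0416).

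Before grafting, PLC/PRF/5 cultures had the highest mean of all 10 members. The F test between the cultures of the 4 lines passed for 6 members, WARS, EPRS, YARS, SARS, AARS and LARS, beside 71.4% of all genes. WARS differed most, at 967 ± 105 CPM in PLC/PRF/5 against 262 ± 3.19 in Hep3B, 240 ± 6.06 in HepG2 and 153 ± 7.36 in HuH7 (limma adjusted p = 1.97e-06), and no neighbours in that order overlapped. EPRS was at 87.4 ± 23.2 CPM in PLC/PRF/5, followed by Hep3B (41.6 ± 0.878) and HuH7 (41.1 ± 2.32), which overlapped, and HepG2 (25.6 ± 4.08) (0.00127). YARS ran from 982 ± 103 CPM in PLC/PRF/5 through HepG2 (719 ± 20.5) and HuH7 (669 ± 10) to Hep3B (479 ± 10.1), with no overlap of neighbours (0.00253). SARS was lowest in HuH7 (206 ± 9.1 CPM) and AARS in Hep3B (123 ± 8.87 CPM), next to HepG2 (136 ± 11.7 CPM), which overlapped it. LARS was at 25.6 ± 3.85 CPM in PLC/PRF/5, and the other lines, at 9.2 to 9.71 CPM, overlapped each other. CARS, GARS, IARS and MARS did not pass (0.68, 0.339, 0.0723 and 0.381). The variance of this test is estimated over all 8 groups, so the spread of tumours enters it. GARS cultures had no overlap of neighbours either, at 1388 ± 155 CPM in PLC/PRF/5, 1039 ± 35.3 in Hep3B, 913 ± 26.2 in HepG2 and 779 ± 7.16 in HuH7.

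Among tumours PLC/PRF/5 again had the highest mean for 9 of 10 members, and most other neighbours overlapped. AARS tumours averaged 262 ± 96.5 CPM in PLC/PRF/5, 96.6 ± 37.3 in HuH7, 69.8 ± 25.6 in HepG2 and 58.2 ± 33.1 in Hep3B. WARS tumours averaged 614 ± 187 CPM in PLC/PRF/5 and 154 to 217 CPM in the other lines. GARS was the exception, highest in HuH7 at 1178 ± 1059 CPM, a mean that was 657 ± 235 CPM without tumour 3.

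Members varied together in groups that were picked after their values were seen and carry no test. After the mean of each line was subtracted over 28 libraries, the log2 levels of AARS, CARS, EPRS, IARS and LARS correlated with each other at Pearson's r of 0.83 to 0.97. GARS, SARS and WARS correlated with each other at 0.89 to 0.93, and with the former group at -0.36 to 0.25. With the mean of each group subtracted, which leaves the spread among replicates, the corresponding values were 0.66 to 0.95, 0.89 to 0.95 and -0.82 to -0.42. MARS followed GARS, SARS and WARS in that spread (0.92 to 0.93), and YARS did so less (0.44 to 0.68). The points share libraries and their scaling, and GARS, SARS and WARS have the 3 shortest amplicons. Counted to the end of the transcript used for placing, the amplicons of AARS, CARS, EPRS, IARS and LARS lie 1149 to 2771 bases away. Those of GARS, MARS, SARS, WARS and YARS lie 218 to 1143 bases away. The part of this distance was not tested.

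The genes most like the mean of the 10 members were chosen by Pearson's r over 28 libraries among 7167 other genes averaging at least 10 CPM. After the mean of each line was subtracted, these were SLC7A11 (0.97), the cystine transporter, RBM3 (0.94), a cold-induced RNA-binding protein, PSAT1 (0.93), an enzyme of serine synthesis, TRIB3 (0.93), a pseudokinase and ATF4 target, CCDC50 (0.93), SLC38A1 and SLC38A2 (0.92 each), neutral amino acid transporters, and DDX5 (0.92), an RNA helicase. After the mean of each group was subtracted they were ANAPC13 (0.90), RBM3 (0.85), SLC7A11 (0.85), PSAT1 (0.83), EIF6 (0.82), KLF15 (0.81), CMSS1 (0.80) and EXOSC8 (0.80). RBM3, SLC7A11 and PSAT1 were in both sets. Subtracting line means leaves the difference between tumours and cultures in, and 31.9% of all genes were called lower in the mean of lines. The members' mean also joins genes that correlated at -0.82 to -0.42 among replicates. Amplicons of the genes named span 117 bases (CMSS1) to 214 (SLC7A11), with 196 in TRIB3 and EIF6, 191 in SLC38A1, 137 in RBM3 and 127 in ANAPC13.

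Between 1 and 6 of the other cytosolic synthetases fell in each line. Of 10 listed, 9 were tested (RARS was not), and limma called 2 (HepG2), 4 (Hep3B), 6 (HuH7) and 1 (PLC/PRF/5) lower, 8 in the mean of lines, and 0 higher in each of these. At an unadjusted p under 0.05, 0 were higher in each, and edgeR and DESeq2 gave 0 higher in each line and 1 each in the mean. Of all genes, limma called 12.4%, 26.7%, 19.5% and 5.62% lower in the 4 lines and 31.9% in the mean. It called 12.6%, 25.3%, 23.9% and 11.7% higher in the lines and 34.4% in the mean. The list's median log2 fold change was -0.49, -0.63, -0.99 and -0.34 in HepG2, Hep3B, HuH7 and PLC/PRF/5. In HepG2, TARS, the threonyl enzyme, fell from 94.3 ± 3.25 to 34.3 ± 10.1 CPM (log2 -1.49 ± 0.27, limma adjusted p = 0.000204) and HARS, the histidyl enzyme, by 0.49 on the log2 scale (0.0181). In Hep3B the largest falls were KARS, the lysyl enzyme (-1.79 ± 0.62, 0.018), and QARS, the glutaminyl enzyme (-1.28 ± 0.41, 0.0112). In HuH7 they were FARSB, a phenylalanyl subunit (-1.66 ± 0.53, 0.0138), and KARS (-1.57 ± 0.62, 0.0423). In PLC/PRF/5 HARS fell from 84.9 ± 3.47 to 53 ± 2.57 CPM (-0.67 ± 0.15, 0.0027). VARS, the valyl enzyme, was at 0.51 (HepG2), -0.13 (Hep3B), 0.62 (HuH7) and 1.07 (PLC/PRF/5), not called, and DARS, the aspartyl enzyme, at 0.41 in PLC/PRF/5 (0.284). Amplicons span 79 bases in TARS, 122 in VARS, 128 in FARSB, 142 in HARS, 143 in QARS, 203 in DARS and 236 in KARS.

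The 3 scaffold proteins of the multisynthetase complex did not move as 1 group. EEF1E1 fell in all 4 lines, from 5.9 ± 0.987 to 1.71 ± 1.39 CPM in HepG2 (log2 -1.50 ± 0.40, limma adjusted p = 0.00637) and from 8.14 ± 2.33 to 2.39 ± 1.88 CPM in PLC/PRF/5 (-1.61 ± 0.40, 0.00541). AIMP1 fell in Hep3B (-1.83 ± 0.52, 0.00494) and HuH7 (-1.48 ± 0.52, 0.0238). AIMP2 rose in Hep3B from 411 ± 13.6 to 729 ± 298 CPM (0.73 ± 0.22, 0.00859) and was at -0.19 to 0.22 elsewhere, not called. Amplicons span 129 bases in AIMP2, 149 in EEF1E1 and 199 in AIMP1.

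The mitochondrial synthetases are encoded mostly by separate nuclear genes. Of 16 tested, 3 rose and 0 fell in HepG2, 6 rose and 4 fell in Hep3B, 2 rose and 3 fell in HuH7, and 4 rose and 0 fell in PLC/PRF/5 by limma. Beside the shares of all genes given above, the falls in Hep3B and HuH7 (26.7% and 19.5% of all genes) and the rises in HuH7 (23.9%) were near or under the background. In HepG2 and PLC/PRF/5 the count of falls was 0 at an unadjusted p under 0.05, by edgeR and by DESeq2 as well. The median log2 fold change of the list was between -0.09 and 0.18 in the 4 lines. CARS2, the mitochondrial cysteinyl enzyme, rose in all 4 lines, from 99.4 ± 6.34 to 213 ± 53.2 CPM in HepG2 (1.06 ± 0.23, adjusted p = 0.0014) and from 107 ± 7.67 to 345 ± 80.7 CPM in Hep3B (1.65 ± 0.23, 3.7e-06). CARS, its cytosolic counterpart, fell in HepG2 and Hep3B. HARS2 rose in Hep3B (1.69 ± 0.32, 0.000141), PARS2 in HepG2 (0.70 ± 0.18, 0.0058) and AARS2 in PLC/PRF/5 (1.00 ± 0.34, 0.0404), while IARS2 fell in HuH7 (-1.20 ± 0.38, 0.0146). Amplicons span 79 bases in HARS2, 110 in PARS2, 155 in AARS2, 159 in CARS2 and 196 in IARS2.

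Most genes of the amino acid response fell in 3 lines. Of 11 tested, 6 fell and 0 rose in HepG2, 8 fell and 1 rose in Hep3B, 7 fell and 1 rose in HuH7, and 2 fell and 0 rose in PLC/PRF/5 by limma. Of all genes, 12.4%, 26.7%, 19.5% and 5.62% were called lower in these lines, and 12.6%, 25.3%, 23.9% and 11.7% higher. The 0 rises in HepG2 were 0 at an unadjusted p under 0.05 and by edgeR and DESeq2, and those in PLC/PRF/5 were 1, 0 and 0. TRIB3 fell from 237 ± 5.82 to 39.1 ± 12.4 CPM in HepG2 (log2 -2.64 ± 0.28, adjusted p = 1.24e-07) and from 267 ± 11 to 43.9 ± 13.6 CPM in HuH7 (-2.62 ± 0.28, 1.12e-07). ASNS, asparagine synthetase, fell in HepG2 from 3.22 ± 1.34 to 0.271 ± 0.316 CPM (-1.72 ± 0.45, 0.00591). That tumour mean lies under the floor of 3 reads of every HepG2 tumour library. CHAC1, which degrades glutathione, fell in Hep3B from 52.8 ± 2.38 to 6.06 ± 2.55 CPM (-3.0 ± 0.36, 3.84e-07) and in PLC/PRF/5 from 96.2 ± 5.65 to 34.3 ± 25.9 CPM (-1.70 ± 0.36, 0.00149). DDIT3, a stress transcription factor, rose in Hep3B from 31.4 ± 0.811 to 157 ± 61.1 CPM (2.17 ± 0.46, 0.000438) and in HuH7 (2.11 ± 0.46, 0.00081). The amplicons span 81 bases in DDIT3, 168 in CHAC1, 196 in TRIB3 and 260 in ASNS. The part of amplicon length in these changes was not tested.

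ATF4 itself, named here after its values were seen, fell in HepG2 from 900 ± 70.7 to 359 ± 96 CPM, in Hep3B from 527 ± 5.22 to 253 ± 53.5 CPM and in HuH7 from 633 ± 14.4 to 327 ± 43.1 CPM. The log2 fold changes were -1.36 ± 0.19, -1.08 ± 0.19 and -0.96 ± 0.19 (limma adjusted p = 7.36e-06, 6.66e-05 and 0.000358). In PLC/PRF/5 ATF4 stood at 534 ± 31.4 CPM in cultures and 548 ± 100 CPM in tumours (0.02 ± 0.19, 0.969). The line by condition interaction passed for ATF4 (adjusted p = 0.0011) and TRIB3 (7.54e-05), where TRIB3 in PLC/PRF/5 was at -0.27 ± 0.28.

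**Figure D5:**
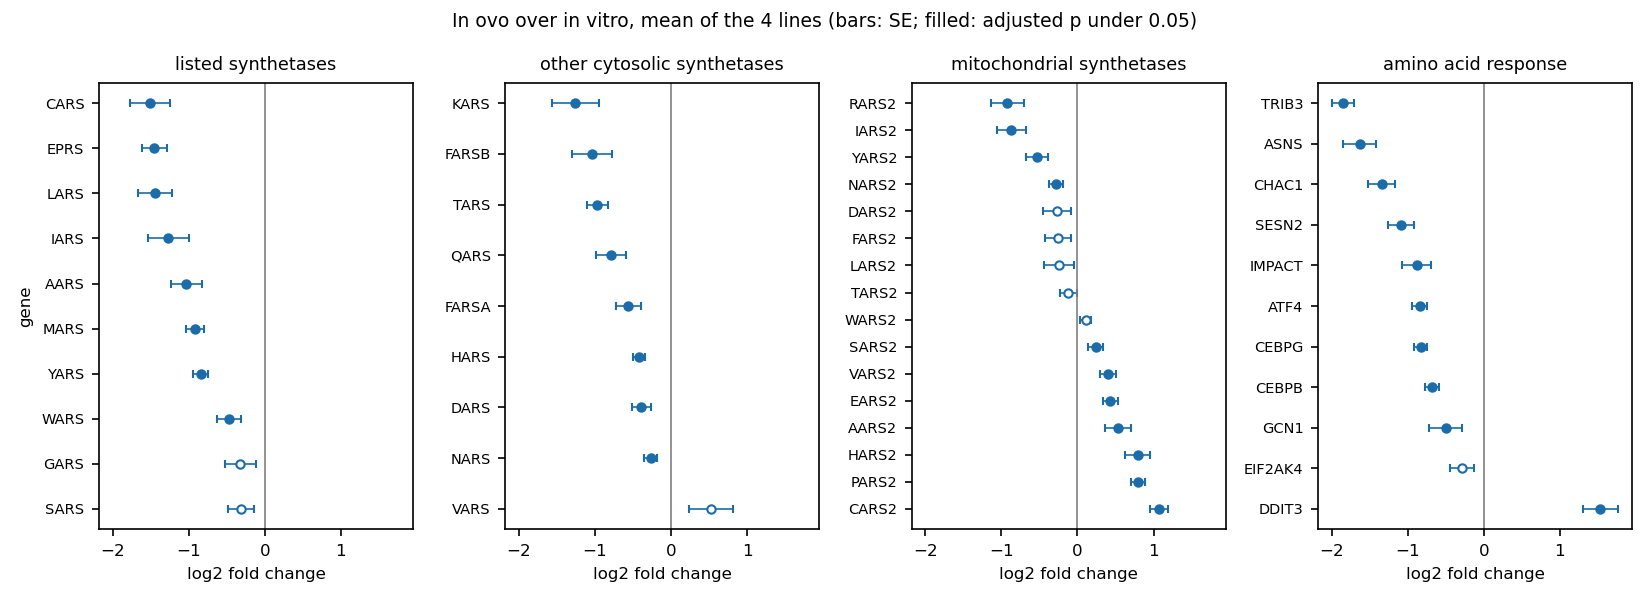
Log2 fold change, in ovo over in vitro, averaged over the 4 lines, with SE as bars, for the listed synthetases, the other cytosolic synthetases, the mitochondrial synthetases and the amino acid response. Filled points passed an adjusted p under 0.05. The cytosolic lists lie to the left of 0 except VARS, the mitochondrial list lies on both sides, and DDIT3 is the 1 gene of its list to the right of 0.

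Of the interferon-gamma-induced genes, which WARS belongs to by regulation, 4 of 8 were tested. With limma 1 fell in HepG2 (GBP2, a guanylate-binding protein, from 17.2 ± 3.03 to 0.923 ± 0.665 CPM), 3 in Hep3B and 1 in HuH7, against 0 in PLC/PRF/5, where the count was also 0 at an unadjusted p under 0.05, by edgeR and by DESeq2. None rose in any line by those tests or at an unadjusted p under 0.05. Of all genes, 12.4%, 26.7%, 19.5% and 5.62% were called lower in HepG2, Hep3B, HuH7 and PLC/PRF/5. With 4 genes tested, counts of 0 or 1 are near these shares. In Hep3B IRF1, a transcription factor of the interferon response, fell from 8.98 ± 0.306 to 2.2 ± 1.28 CPM (log2 -1.75 ± 0.39, limma adjusted p = 0.000689). Of the 6 elongation factors, 4 rose in PLC/PRF/5, beside 11.7% of all genes. The 4 included EEF1G, from 60.7 ± 4.64 to 118 ± 10.8 CPM (0.94 ± 0.17, 0.000243), and EEF1A1 (1.09 ± 0.16, 1.75e-05), which has near-identical processed copies in the genome. In HepG2 EEF1A2 fell (-1.94 ± 0.39, 0.000579), in Hep3B EEF1A2 fell (-3.26 ± 0.39, 3.72e-07) and EEF1D rose (1.53 ± 0.27, 5.87e-05), and in HuH7 2 rose and 1 fell. There EEF1B2 fell (-1.36 ± 0.27, 0.000259), and EEF1A2 rose from 121 ± 9.67 to 272 ± 94.1 CPM (1.09 ± 0.39, 0.0283). Beside these counts, 12.6%, 25.3% and 23.9% of all genes were called higher in HepG2, Hep3B and HuH7, with the shares called lower given above.

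The promoters of 8 members were found in the RefSeq windows (GRCh38.p14, 250 bases before to 50 after the start). The C/EBP-ATF response element, bound by ATF4 dimers, was searched as TGATGNAAN on both strands, and 4 of the 8 (AARS, CARS, IARS and MARS) held it, against 3.67% of 27305 promoters. In all 4 it read GTTGCATCA on the gene's own strand, so the match lies on the opposite strand. Its first base was at -188 in AARS, -3 in CARS, -14 in IARS and -5 in MARS, counted from the annotated start. The stretches around it are printed with the match in capitals, because these 4 members carry the same 9 letters in their windows. In CARS and MARS the match runs across the annotated start. They lie on the minus strand of chr16:70289646-70289734, chr11:3057418-3057466 and chr9:92293698-92293751 and the plus strand of chr12:57488023-57488071.
AARS: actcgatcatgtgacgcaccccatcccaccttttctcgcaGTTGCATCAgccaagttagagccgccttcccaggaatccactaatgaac
CARS: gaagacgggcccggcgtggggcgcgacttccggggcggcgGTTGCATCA
IARS: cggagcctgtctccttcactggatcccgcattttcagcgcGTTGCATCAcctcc
MARS: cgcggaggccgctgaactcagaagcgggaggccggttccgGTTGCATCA
These 4 members were at -1.03 (AARS), -1.51 (CARS), -1.27 (IARS) and -0.92 (MARS) in the mean of lines. EPRS, GARS, SARS and WARS, without the letters in their windows, were at -1.45, -0.32, -0.31 and -0.47. This split goes with amplicon length: AARS, CARS and IARS span 185 to 218 bases, and GARS, SARS and WARS 104 to 134. With GC and length trends removed, AARS, CARS, IARS and MARS were at -1.10, -1.69, -0.82 and -0.94. EPRS, GARS, SARS and WARS were then at -1.15, -0.52, -0.82 and -0.84. Of the other cytosolic synthetases, 2 of 8 windows held the element (NARS and TARS), and of the mitochondrial ones 1 of 13 (YARS2). Of the amino acid response genes, 2 of 11 windows held it (ASNS and CHAC1), and those of TRIB3, DDIT3 and SESN2 did not. The interferon-stimulated response element, searched by its usual consensus on both strands, was in 0 of 8 member windows, WARS included, and in 3.65% of all promoters. The gamma-activated site, TTCNNNGAA, was in 1 of 8 (CARS) and in 7.88% of all. A match is a description of letters, and binding was not measured.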

How the data were processed

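Per the labels' protocols, libraries were made from 500 ng of total RNA with DriverMap targeted amplicons. The submitters' processing notes name hg38. The read aligner is not given in the sources used here, nor is the counting. The authors deposited, for each amplicon, a signal that totals 500000 per library. Each library's smallest step gave the whole reads behind its values: the share of values within 0.01 of a whole number was at least 99.9684% in every library, and edgeR's test on those reads called 3184 (HepG2), 6303 (Hep3B), 5236 (HuH7) and 2241 (PLC/PRF/5) genes. 1 damaged cell of another gene was filled from its library's shortfall. limma 3.58.1 (R 4.3.3) with a trended variance was fitted to log2(CPM + 1) after TMM scaling, with a pseudocount of 1 CPM, 8 groups, 20 residual degrees of freedom and edgeR's filterByExpr (at least 10 reads), which kept 13100 genes and dropped 5861. Alternatives used edgeR 4.0.16 and DESeq2 1.42.0 on recovered reads, other scalings, filters and pseudocounts, single-line fits, a replicate block, left-out libraries, and removal of GC and length trends. The smallest chi-square per degree of freedom among 36 replicate pairs was 1.65, above sampling noise, so no pair looked like the same library read again. Every library was counted as 1 replicate. The value cannot tell separate cultures or eggs from separate libraries of 1 sample. Amplicons were matched exactly to GENCODE 29 transcripts, and promoters are RefSeq's.

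The members, the gene lists and the tests were chosen with earlier results of these data known. All 10 members are described whatever their values. From each list the counts and the 2 called genes of largest change in a line are given, and 8 genes most like the members' mean. The values of 1 gene that this rule names are not reported here. The whole-read floor is 3 reads per library and covers counting error only.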

Additional observations from a re-analysis of the deposited data

Results flagged for a closer look

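In 40 groups of 4 tumours (10 members in 4 lines), the gap of the highest or lowest tumour to its neighbour exceeded Dixon's limit at 95% in 5, and chance flags about 1 in 20. Of these, 4 were the HepG2 tumour numbered 3: CARS at 1.22 CPM against 8.67 to 9.74 CPM in the other tumours, GARS at 1278 against 417 to 458 CPM, MARS at 226 against 155 to 166 CPM, and WARS at 223 against 127 to 134 CPM. That library was low for the longer amplicon of CARS (185 bases) and high for the shorter ones of GARS, MARS and WARS (104 to 138 bases). Length did not sort all members there. EPRS (138 bases) was lowest in that library too, at 3.87 against 10.3 to 14.2 CPM, as was YARS (146 bases), at 218 against 265 to 278 CPM. Distance from amplicon to transcript end is 1278 bases in EPRS, 1316 in CARS, 1003 in YARS and 218 to 1143 in GARS, MARS and WARS. The part of distance was not tested. The fifth was CARS in the PLC/PRF/5 tumour numbered 2, at 42.5 CPM against 15.3 to 18.3 CPM, within the range of that line's cultures (39 to 61.5 CPM).

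Between lines, the response in ovo differed for LARS (limma adjusted p of the interaction 0.0278) and YARS (0.0131), as lower log2 fold changes in Hep3B for LARS and in HepG2 for YARS. The same test passed for 41.7% of all genes, a larger share than of the members. The LARS values in Hep3B tumours rest on 22, 3, 0 and 2 reads.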

How the results depend on the processing

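With 14 alternatives and each of 28 libraries left out in turn, 0 members were called higher in any line or in the mean. Without the tumours numbered 3, the calls in HepG2 went from 5 to 8 and in PLC/PRF/5 from 2 to 5. All genes called in either direction went from 25% to 33.7% and from 17.3% to 29.2% there. Total counts alone gave 10 calls in Hep3B, 4 in PLC/PRF/5 and 4 members differing between lines, beside 61.3%, 18.9% and 49% of all genes. PLC/PRF/5 had 7 calls fitted alone, where 34.2% of all genes were called in either direction against 17.3%, and 5 with GC and length trends removed (19.1%). A minimum of 2-fold left 1 call in PLC/PRF/5 and 5 in the mean of lines, beside 8.8% and 15% of all genes. A pseudocount of 5 CPM, or removal of the GC and length trends, left 1 member differing between lines, beside 44.4% and 45.8% of all genes. Leaving out 1 library gave 4 to 6 calls in HepG2, 5 to 6 in Hep3B, 5 to 7 in HuH7, 0 to 3 in PLC/PRF/5, 8 to 10 in the mean of lines, 1 to 2 members differing between lines and 5 to 7 between cultures. In the same order, 17.4% to 30.3%, 42.3% to 56.5%, 32.3% to 51.3%, 10.1% to 21.6%, 63% to 69%, 36.5% to 49.5% and 67.1% to 76% of all genes were called. In PLC/PRF/5 the count was 0 without tumour 1 or tumour 3 and 1 without any 1 of its cultures. The cause of these shifts was not tested.

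Directions turned for values near 0 that were not called. SARS in Hep3B (-0.09) was 0.02 by DESeq2 and 0.01 with the replicate block, and -0.35 to 0.04 with 1 library left out. GARS in HuH7 (0.22) was -0.05 with total counts, -0.30 without the tumours numbered 3, -0.02 with trends removed, and -0.31 to 0.60 with 1 library left out. SARS in HuH7 (0.06) was -0.21, -0.33 and -0.73 under the same settings, -0.02 with the line fitted alone, and -0.34 to 0.40 with 1 library left out. WARS in HuH7 (-0.16) was 0.01 by edgeR, 0.05 by DESeq2, and -0.49 to 0.13 with 1 library left out.

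Culture and tumour replicates share numbers, but deviations of same-numbered libraries correlated at -0.0967 to 0.457, so the numbers were not taken as pairs. With the replicate block 7, 6, 7 and 3 members were called lower in HepG2, Hep3B, HuH7 and PLC/PRF/5. Calls over all genes in either direction rose as well, to 32.3%, 57.4%, 50.5% and 22.7%, from 25%, 52%, 43.4% and 17.3%. DESeq2 gave no test between cultures, and single-line fits gave no mean of lines. Over all genes, calls changed by over 1.5 times in HuH7 (3733 fitted alone) and PLC/PRF/5 (3747 fitted alone, 3792 without the tumours numbered 3, 1354 without culture 2), and with a minimum of 2-fold in every contrast. Depth limits LARS most, at 0 to 22 reads in Hep3B tumours.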
